A study of Mus musculus with 24 samples.

Results

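Collagens are matrix proteins wound as a helix of 3 chains, and each chain has a gene of its own. The collagen genes described here are all those measured by a probe set with exactly 1 gene symbol of the form Col, a number, a, a number: 44 genes from 46 probe sets, of 19938 genes in all. Col6a5 and Col6a6 had 2 probe sets each, of which the brighter on average was kept. RNA of 3 kinds of mouse cell was hybridised to 24 Affymetrix arrays, 4 for each of 6 groups. C57epi.1 is a line of C57BL/6 mice, labelled epithelial and derived from the upper reproductive tract, and Bm12.4 is its counterpart from B6(C)-H2-Ab1bm12/KhEgJ mice, so each is 1 line of 1 strain. The macrophages came from femur bone marrow of C57BL/6 mice and were grown with GM-CSF. Each kind was treated with an inflammatory supernatant or kept in RPMI media without it. The supernatant was conditioned medium, at 33% by volume, of CD4 T cells (a clone specific for Chlamydia) held with an infected epithelial monolayer, with interferon-gamma brought to 4 ng/ml. The comparisons asked which collagen genes the cells carried and how their levels stood after this treatment. The labels do not say that the 4 replicates of a group came from separate cultures, and the p-values cover no more than the spread among the arrays.

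Fibrillar collagens (types I, II, III, V, XI, XXIV and XXVII) form the fibres of connective tissue and are made mainly by fibroblasts and other stromal cells. Type IV collagen forms the sheet of the basement membrane under epithelia, type VI forms beaded filaments near it, and type VIII forms short chain networks. The fibril-associated collagens with interrupted helices (FACIT) sit on fibre surfaces, and multiplexins carry long sugar chains at basement membranes. Interferon-gamma is known to lower transcription of the type I collagen genes in fibroblasts, and the class II transactivator Ciita and the factor Rfx5 are known to act at the Col1a2 promoter there.

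The label of epithelial cells was set against marker genes. On the log2 scale of the arrays, the keratin gene Krt19 averaged 11.32 ± 0.42 in C57epi.1 media and 11.77 ± 0.40 in Bm12.4 media, against 4.32 in macrophage media (SD where given, n = 4 each). The epithelial adhesion gene Epcam averaged between 3.67 and 3.79 in all 6 groups, and Cdh1 averaged 4.34 in C57epi.1 media and 4.50 in Bm12.4 media, against 6.65 in macrophage media. The mean of 12 stromal markers, collagens left out, lay between 7.63 and 8.32 in C57epi.1 media and between 7.87 and 8.52 in Bm12.4 media, against 5.80 to 5.97 in macrophage media. Its members did not move as 1. In C57epi.1, Bm12.4 and macrophage media, Prrx1 averaged 11.29, 10.24 and 4.99, Fap 2.89, 2.88 and 2.96, and Fbln1 4.72, 10.60 and 4.94. The mean of 6 mesothelial markers lay between 8.79 and 9.36 in C57epi.1 media and between 9.55 and 10.09 in Bm12.4 media, against 4.58 to 4.91 in macrophage media. The keratin gene Krt8 averaged 9.25 in C57epi.1 media and 5.67 in Bm12.4 media, against 5.39 in macrophage media. The mean of 13 epithelial markers lay between 5.38 and 5.53 in C57epi.1 media and between 5.08 and 5.16 in Bm12.4 media, against 4.66 to 4.84 in macrophage media. Of the 13, Krt19, Krt8 and Krt7 were called higher in C57epi.1 media than in macrophage media, and only Krt19 in Bm12.4 media (limma). Epcam did not separate the lines from macrophages and Cdh1 was lower in both lines, so epithelial is used here as the labels' name. In cultures of this kind, fewer cells of a type and less RNA per cell cannot be told apart.

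The media arrays of both lines fell apart by replicate number. The mean of 9 proliferation genes was 10.63 and 10.57 in C57epi.1 media replicates 1 and 2 and 9.29 and 9.35 in replicates 3 and 4. It was 10.52 and 10.48 in Bm12.4 media replicates 1 and 2 and 7.67 and 7.92 in replicates 3 and 4. The stromal mean ran the other way, at 7.65 and 7.63 and then 8.27 and 8.32 in C57epi.1 media, and at 7.87 and 7.95 and then 8.48 and 8.52 in Bm12.4 media. The proliferation mean of the supernatant arrays also moved with the replicate numbers, by less. In replicates 1 to 4 it was 10.34, 9.82, 9.09 and 9.49 in Bm12.4 with supernatant. In C57epi.1 with supernatant it was 10.21, 10.02, 9.88 and 9.98. The labels name no batch for these numbers, so many of the differences below are also given within replicates 1 and 2 and within replicates 3 and 4. Replicates 3 and 4 were both above replicates 1 and 2 for 34 of 44 collagen genes in Bm12.4 media, or 77.3% of them against 38.6% of all genes, and for 18 of 44 in C57epi.1 media, or 40.9% against 28.8%.

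The line difference and the supernatant effect below turn on a few genes, so the 250 bases before the annotated start of 4 of them are shown (RefSeq, GRCm38.p6, 5′ to 3′ on the gene's strand). Col1a2 and Col11a1 were higher in C57epi.1 than in Bm12.4, Col8a1 was lower, and Col6a1 had the largest fall with supernatant. Capitals mark CCAAT, the box bound by nuclear factor Y, and GGGCGG, the box bound by Sp1, on either strand (ATTGG and CCGCCC on the reverse).
Col1a2 (chr6:4505368-4505617, plus strand): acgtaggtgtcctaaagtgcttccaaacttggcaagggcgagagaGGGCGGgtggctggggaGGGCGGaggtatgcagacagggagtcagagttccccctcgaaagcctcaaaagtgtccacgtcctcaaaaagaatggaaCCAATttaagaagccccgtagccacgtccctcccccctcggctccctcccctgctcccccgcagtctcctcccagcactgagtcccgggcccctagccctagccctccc
Col11a1 (chr3:114030290-114030539, plus strand): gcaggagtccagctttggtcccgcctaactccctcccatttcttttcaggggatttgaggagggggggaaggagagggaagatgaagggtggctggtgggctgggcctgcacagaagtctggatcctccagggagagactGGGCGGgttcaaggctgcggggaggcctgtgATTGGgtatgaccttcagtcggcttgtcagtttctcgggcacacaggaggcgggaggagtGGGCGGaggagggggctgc
Col8a1 (chr16:57754738-57754987, minus strand): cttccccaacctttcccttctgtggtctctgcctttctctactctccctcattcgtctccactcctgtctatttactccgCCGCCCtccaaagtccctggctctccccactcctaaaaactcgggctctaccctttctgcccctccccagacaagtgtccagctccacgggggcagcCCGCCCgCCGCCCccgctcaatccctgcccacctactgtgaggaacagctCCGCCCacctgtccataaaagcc
Col6a1 (chr10:76726045-76726294, minus strand): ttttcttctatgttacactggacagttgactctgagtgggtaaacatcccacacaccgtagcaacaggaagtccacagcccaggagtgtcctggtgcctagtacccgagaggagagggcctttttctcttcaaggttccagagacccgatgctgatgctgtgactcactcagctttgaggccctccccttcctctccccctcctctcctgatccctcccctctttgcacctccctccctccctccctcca

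Of the 44 genes, 35 matched an entry, with 38 windows. CCAAT stood in 34.2% of the collagen windows and 33.8% of all 32851 windows of this length, and GGGCGG in 57.9% and 32.7%. TTCNNNGAA, the core of sites bound by Stat factors, stood in 5.3% of collagen windows and 7.0% of all windows. Col1a2 and Col11a1 each held 1 CCAAT and 2 GGGCGG, Col8a1 held 4 GGGCGG, and Col6a1 held none of these letters. Both strands were searched, and no marked runs overlap in the windows shown. The annotated starts of Col4a1 and Col4a2, which encode the partner chains of the main type IV collagen and are read in opposite directions, lie 21 bases apart, and those of Col4a5 and Col4a6 lie 1343 bases apart.

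Over the 6 groups, 18 of the 44 genes had group means that spanned at least 1 on the log2 scale, 24 spanned less than 0.5, and Col20a1 and Col24a1 lay between. By class, the 18 were 6 of 11 fibrillar genes, 4 of 6 basement membrane genes, 3 of 6 beaded filament genes, 3 of 9 FACIT genes, 1 of 3 short chain genes and 1 of 2 multiplexins. None of the 4 transmembrane collagens, the anchoring fibril gene Col7a1 or the other 2 genes (Col26a1 and Col28a1) was among them. The group with the highest mean was a C57epi.1 group for 10 of the 18 and a Bm12.4 group for 8, and a macrophage group for 0. The spans were widest for Col1a2 at 6.75, Col3a1 at 6.66, Col1a1 at 6.39, Col5a2 at 6.09 and Col6a1 at 5.76. No detection p-value was used here, so it is not known which of the low levels exceed background.

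**Figure D1:**
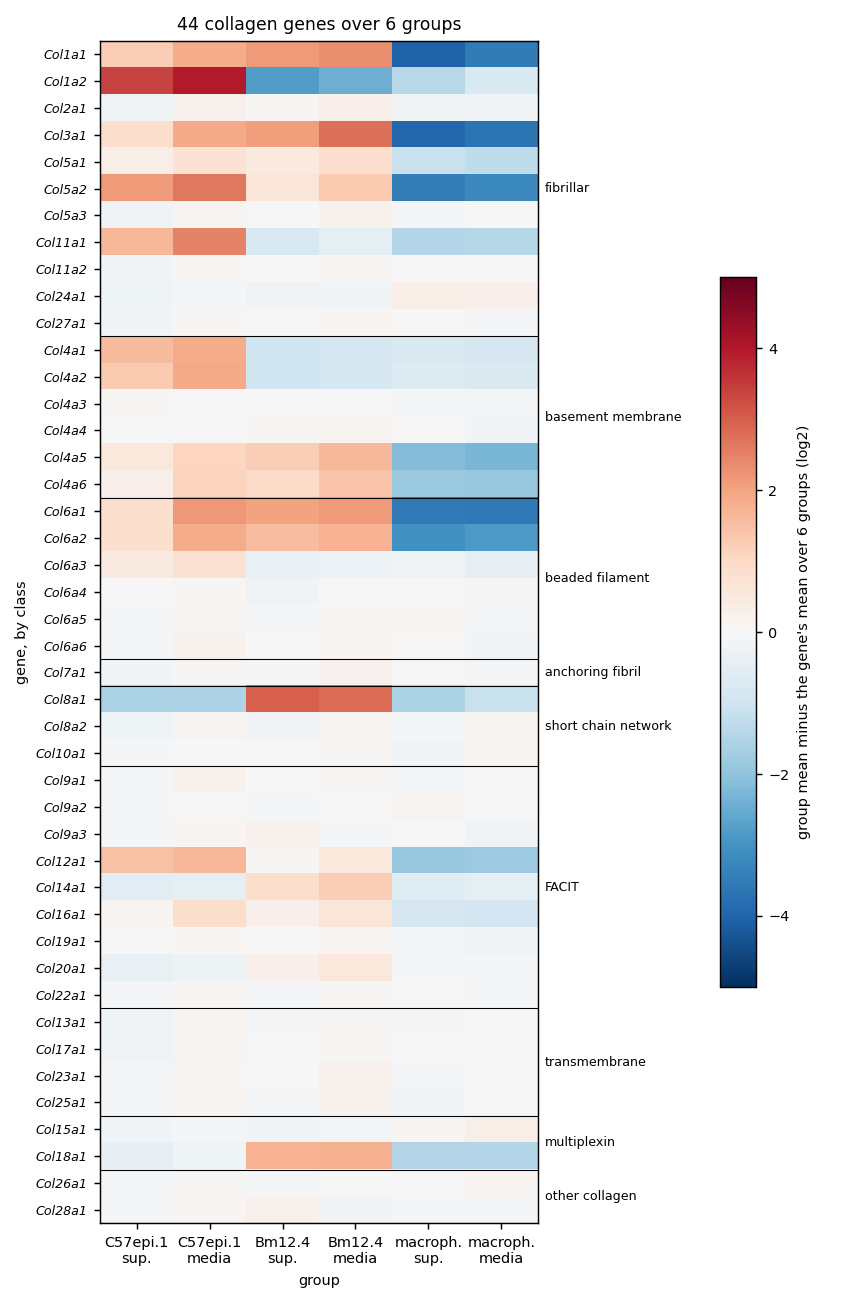
Heat map of the 44 collagen genes (rows, by class) in 6 groups (columns; sup., supernatant; macroph., macrophages). Colour is the group mean minus the gene's mean over the 6 groups, on the log2 scale. The coloured rows are mainly the 18 genes that spanned at least 1. Both lines stand above macrophages for Col1a1, Col3a1, Col5a2, Col6a1 and Col6a2, and C57epi.1 alone is high for Col1a2, Col4a1 and Col4a2. Col11a1 is highest in C57epi.1, and was also called higher in Bm12.4 media than in macrophage media.

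Both lines carried more Col1a1, Col3a1, Col5a2, Col6a1 and Col6a2 than macrophages did, while Col1a2 was higher in C57epi.1 and lower in Bm12.4. In media, 18 of 44 genes were higher and 2 lower in C57epi.1 than in macrophages, or 45.5% called at a Benjamini-Hochberg adjusted p under 0.05 (limma, 1 model over all 24 arrays), against 44.5% of all 19938 genes. The higher calls alone were 40.9% of the collagens and 22.7% of all genes. In Bm12.4 media against macrophage media, 18 were higher and 3 lower, or 47.7% against 42.8% of all genes, with 40.9% against 22.1% for the higher calls. Of the genes called higher, 14 were so in both lines, 4 in C57epi.1 but not Bm12.4 (Col1a2, Col4a1, Col4a2, Col6a3) and 4 in Bm12.4 but not C57epi.1 (Col8a1, Col14a1, Col20a1, Col4a4). Of these 8, Col4a4 did not pass the test between the lines in media (-0.15, adjusted p = 0.237, limma). Col20a1 in Bm12.4 media differed from macrophage media by -0.14 within replicates 1 and 2 and by 1.32 within replicates 3 and 4, so its direction turned, and the call was lost without media replicate 3 or 4 of Bm12.4 or 2, 3 or 4 of macrophages (adjusted p up to 0.198, limma). That of the FACIT gene Col19a1 was lost in C57epi.1 without its media replicate 2 or 4 or macrophage media replicate 1, 3 or 4 (up to 0.163), and in Bm12.4 without its media replicate 4 (0.0603). Other differences from macrophage media also moved with the replicate numbers. Within replicates 1 and 2 and within replicates 3 and 4, C57epi.1 differed by 0.82 and 1.66 for Col18a1 and by 0.72 and 1.58 for Col6a3. In the same order, Bm12.4 differed by 0.40 and 1.55 for Col11a1, 2.99 and 1.70 for Col12a1, 1.31 and 2.04 for Col14a1, and 1.23 and 1.85 for Col16a1. The smaller Bm12.4 differences were 0.17 and 0.46 for Col19a1, 0.28 and 0.56 for Col2a1, and 0.22 and 0.36 for Col4a4. The median difference of the 44 was 0.15 for C57epi.1 and 0.19 for Bm12.4, against -0.01 and 0.01 over all genes.

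Col1a1, the alpha 1 chain of type I collagen, read 11.87, 11.75, 11.90 and 11.98 in C57epi.1 with supernatant and 12.51, 12.33, 12.58 and 12.54 in C57epi.1 media. It read 12.94, 12.77, 12.64 and 12.73 in Bm12.4 with supernatant and 13.08, 12.82, 12.91 and 13.12 in Bm12.4 media. Macrophages read 6.36, 6.77, 6.60 and 6.62 with supernatant and 6.98, 7.05, 7.27 and 7.36 in media. No array of either line overlapped a macrophage array, and the media difference was 5.33 (SE 0.10) for C57epi.1 and 5.82 (SE 0.10) for Bm12.4, or 40.1-fold and 56.4-fold.

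Col3a1, the chain of type III collagen of reticular fibres, read 10.62, 10.49, 10.31 and 10.56 in C57epi.1 with supernatant and 11.30, 11.05, 11.87 and 11.93 in C57epi.1 media. It read 11.56, 12.04, 11.49 and 11.80 in Bm12.4 with supernatant and 12.16, 11.94, 12.63 and 12.74 in Bm12.4 media. The macrophage arrays read 5.60, 5.83, 5.25 and 6.15 with supernatant and 5.91, 6.06, 6.08 and 5.81 in media. The lines stood above macrophages on every array, by 5.57 (SE 0.21) for C57epi.1 and 6.40 (SE 0.21) for Bm12.4 in media.

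Col5a2, a chain of the type V collagen that starts fibril assembly, read 10.64, 10.68, 10.52 and 10.56 in C57epi.1 with supernatant and 11.03, 11.03, 11.23 and 11.17 in C57epi.1 media. It read 8.77, 9.27, 9.05 and 9.15 in Bm12.4 with supernatant and 9.49, 9.51, 9.99 and 10.06 in Bm12.4 media. In macrophages it read 5.17, 5.13, 4.89 and 4.90 with supernatant and 5.14, 5.47, 5.25 and 5.06 in media. All C57epi.1 arrays stood above all Bm12.4 arrays, and all of these above macrophages. Its partner chain Col5a1 was also higher in both lines in media, by 1.97 in C57epi.1 and 2.10 in Bm12.4.

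Among the type VI chains, Col6a1 read 9.54, 10.07, 10.15 and 10.44 in C57epi.1 with supernatant and 11.10, 10.90, 11.83 and 11.79 in C57epi.1 media. It read 10.81, 11.35, 11.44 and 11.39 in Bm12.4 with supernatant and 11.05, 11.08, 11.73 and 11.65 in Bm12.4 media. Macrophage values were 5.77, 5.33, 5.70 and 5.93 with supernatant and 5.79, 5.69, 5.69 and 5.41 in media. Only the C57epi.1 supernatant arrays separated from the media arrays of the same cells. Col6a2, whose chain joins that of Col6a1, read 9.24, 9.87, 9.92 and 10.02 in C57epi.1 with supernatant and 10.53, 10.17, 11.31 and 11.26 in C57epi.1 media. It read 10.41, 10.54, 10.57 and 10.48 in Bm12.4 with supernatant and 10.43, 10.36, 11.02 and 11.07 in Bm12.4 media. The macrophages gave 5.68, 5.92, 6.14 and 6.04 with supernatant and 5.90, 6.29, 5.83 and 6.38 in media. Again the C57epi.1 arrays split by treatment without overlap, while those of Bm12.4 and of macrophages overlapped. Col4a5 and Col4a6, basement membrane chains read from neighbouring starts on the X chromosome, were higher than in macrophages by 3.38 and 3.03 in C57epi.1 media and by 3.90 and 3.35 in Bm12.4 media.

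Few collagens were higher in macrophages than in a line. Col24a1, a minor fibrillar chain, was lower in C57epi.1 media by 0.29 (adjusted p = 0.0319, limma) and in Bm12.4 media by 0.37 (adjusted p = 0.00659, limma; -0.57 within replicates 1 and 2 and -0.17 within replicates 3 and 4 of Bm12.4), with 5.39, 5.44, 5.34 and 5.42 in C57epi.1 media and 5.07, 5.26, 5.46 and 5.47 in Bm12.4 media, against 5.84, 5.64, 5.65 and 5.61 in macrophage media. The line arrays lay below the macrophage arrays, and the C57epi.1 call was lost without media replicate 1 or 3 of C57epi.1 or media replicate 1 of macrophages (adjusted p up to 0.109, limma). Col8a1 was lower in C57epi.1 media by 0.42 (adjusted p = 0.0403, limma), from arrays that overlapped (-0.67 within replicates 1 and 2 and -0.17 within replicates 3 and 4), and the call was lost without media replicate 1, 2 or 3 of C57epi.1 or of macrophages (adjusted p up to 0.137, limma). Col15a1, a multiplexin, averaged 5.21 in Bm12.4 media and 5.62 in macrophage media. It read 5.31, 4.85, 5.42 and 5.28 in Bm12.4 media and 5.64, 5.76, 5.72 and 5.34 in macrophage media. These arrays overlapped (-0.62 within replicates 1 and 2 and -0.18 within replicates 3 and 4). The call was lost without media replicate 2 of Bm12.4 or media replicate 1, 2 or 3 of macrophages (adjusted p up to 0.129, limma). After centring each array on its median, the split in C57epi.1 against macrophage media was 21 higher and 0 lower. The shares of all genes after centring are not given here, so this split cannot be weighed against them. With supernatant, 16 collagens were higher and 1 lower in C57epi.1 than in macrophages, or 38.6% in either direction against 47% of all genes. In Bm12.4, 15 were higher and 3 lower than in macrophages, or 40.9% in either direction against 43.8%. The higher calls alone were 36.4% and 34.1% of the collagens. The share of all genes called higher with supernatant is not given here, so these higher calls cannot be weighed against it. The call of Col6a3 in C57epi.1 was lost without supernatant replicate 3 or 4 of C57epi.1 or 3 of macrophages (adjusted p up to 0.0774, limma), and that of Col28a1 in Bm12.4 without supernatant replicate 2 or 4 of Bm12.4 (up to 0.0611).

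In C57epi.1 media, 19 of 27 collagen processing genes were higher and 4 lower than in macrophage media, led by Pcolce, which enhances removal of the procollagen C-propeptide (6.68), the lysyl hydroxylase Plod2 (5.41) and the prolyl hydroxylase P3h2 (5.33), and their median was 1.48 against -0.01 over all genes. The list of 10 genes of collagen degradation pools proteases with the inhibitors Timp1, Timp2 and Timp3. Of the 10, 3 were higher and 5 lower, led by the collagenase Mmp8 (-8.83), the cathepsin Ctsk (-6.92) and the collagenase Mmp13 (-6.75). Timp1, Timp2 and Timp3 averaged 9.35, 11.39 and 11.75 in C57epi.1 media, against 9.25, 10.55 and 7.15 in macrophage media. Of 9 collagen receptors, 3 were higher and 3 lower, led by Ddr2 (5.42), Lair1 (-5.37) and Ddr1 (4.21). In Bm12.4 media against macrophage media, 15 processing genes were higher and 6 lower, and 3 degradation genes were higher and 5 lower. There Timp1, Timp2 and Timp3 averaged 9.95, 11.35 and 11.88. The counts of the degradation list mix proteases and inhibitors, so they give no direction of degradation. Of all genes, 22.7% were higher and 21.8% lower in C57epi.1 media, and 22.1% were higher and 20.8% lower in Bm12.4 media.

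The lines themselves differed in which collagens they carried. In media, C57epi.1 was higher than Bm12.4 for Col1a2, Col11a1, Col4a2, Col4a1, Col5a2, Col12a1 and Col6a3, and lower for Col8a1, Col18a1, Col14a1, Col3a1, Col20a1 and Col1a1. These 13 genes were 29.5% of the collagens, against 24.4% of all genes called. Of the 13, 10 reached 2-fold, or 22.7% of the collagens against 7.54% of all genes. All 13 were called the same way with supernatant. The differences set 1 line of each strain against the other, so strain and line cannot be told apart.

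Col1a2, the alpha 2 chain that pairs with Col1a1 in ordinary type I collagen, read 11.72, 11.78, 11.87 and 12.01 in C57epi.1 with supernatant and 12.28, 12.20, 12.63 and 12.61 in C57epi.1 media. It read 5.53, 5.43, 5.95 and 5.80 in Bm12.4 with supernatant and 5.98, 5.94, 6.00 and 6.11 in Bm12.4 media. Macrophages read 6.82, 6.92, 7.45 and 7.10 with supernatant and 7.55, 7.66, 7.95 and 7.67 in media. C57epi.1 thus stood highest, macrophages next and Bm12.4 lowest on every array. The difference of C57epi.1 from Bm12.4 in media was 6.42 (95% interval 6.14 to 6.71, adjusted p = 5.59e-20, limma), or 85.8-fold, and Bm12.4 was below macrophages by 1.70 (adjusted p = 2.7e-10, limma). Col1a1 went the other way between the lines, lower in C57epi.1 media by 0.49 (SE 0.10, adjusted p = 0.000745, limma).

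Col4a1 and Col4a2 were high in C57epi.1 alone. Col4a1 read 7.82, 7.98, 8.08 and 8.14 in C57epi.1 with supernatant and 8.34, 8.33, 8.28 and 8.27 in C57epi.1 media. It read 5.31, 5.37, 5.68 and 5.33 in Bm12.4 with supernatant and 5.58, 5.58, 5.70 and 5.55 in Bm12.4 media. The macrophage arrays read 5.83, 5.69, 5.44 and 5.64 with supernatant and 5.79, 5.51, 5.63 and 5.48 in media. Bm12.4 and macrophage arrays overlapped, and C57epi.1 stood above both. Col4a2 read 7.57, 7.74, 7.82 and 7.71 in C57epi.1 with supernatant and 8.31, 8.27, 8.28 and 8.31 in C57epi.1 media. It read 5.25, 5.27, 5.59 and 5.50 in Bm12.4 with supernatant and 5.27, 5.52, 5.75 and 5.67 in Bm12.4 media. In macrophages it read 5.85, 5.65, 5.46 and 5.82 with supernatant and 5.53, 5.78, 5.87 and 5.40 in media. C57epi.1 exceeded Bm12.4 in media by 2.70 (SE 0.10) for Col4a1 and 2.74 (SE 0.12) for Col4a2, 6.51-fold and 6.68-fold. Bm12.4 did not pass the test against macrophages in media for either gene, and with supernatant it was lower for Col4a2 by 0.29 (adjusted p = 0.047, limma), with arrays that overlapped and a call lost without supernatant replicate 1 or 2 of Bm12.4 or 1, 2 or 4 of macrophages (adjusted p up to 0.144, limma).

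Col11a1, a type XI chain best known from cartilage, read 8.39, 8.61, 8.55 and 8.71 in C57epi.1 with supernatant and 8.92, 8.89, 9.88 and 9.88 in C57epi.1 media. It read 5.87, 6.19, 6.27 and 6.28 in Bm12.4 with supernatant and 5.91, 5.86, 6.89 and 7.10 in Bm12.4 media. Macrophage values were 5.35, 5.54, 5.24 and 5.56 with supernatant and 5.59, 5.38, 5.52 and 5.37 in media. C57epi.1 exceeded Bm12.4 in media by 2.95 (SE 0.24, adjusted p = 1.99e-09, limma), and by 3.02 within replicates 1 and 2 and 2.88 within replicates 3 and 4.

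On the side of Bm12.4, Col8a1, a short chain collagen of vessel walls and of the cornea's inner membrane, read 4.55, 4.62, 4.20 and 4.56 in C57epi.1 with supernatant and 4.27, 4.41, 4.57 and 4.84 in C57epi.1 media. It read 9.06, 9.15, 8.78 and 9.15 in Bm12.4 with supernatant and 8.46, 8.55, 9.07 and 9.33 in Bm12.4 media. The macrophages gave 4.42, 4.22, 4.51 and 4.64 with supernatant and 5.02, 4.99, 4.99 and 4.76 in media. Only Bm12.4 was high, and C57epi.1 media was lower than Bm12.4 media by 4.33 (SE 0.16, adjusted p = 1.42e-15, limma), or 20.1-fold. Col18a1, the multiplexin from which endostatin is cut, read 6.27, 6.94, 6.93 and 6.96 in C57epi.1 with supernatant and 6.60, 6.64, 7.37 and 7.38 in C57epi.1 media. It read 8.96, 9.12, 8.94 and 8.80 in Bm12.4 with supernatant and 8.89, 9.07, 8.98 and 9.01 in Bm12.4 media. The lines did not overlap, and macrophages lay between 5.21 and 6.23 over both treatments. The media difference was -1.99 (SE 0.20, adjusted p = 5.84e-08, limma).

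Col14a1, a FACIT collagen, read 4.44, 4.50, 4.61 and 4.54 in C57epi.1 with supernatant and 4.50, 4.76, 4.46 and 4.72 in C57epi.1 media, against 5.95, 6.22, 5.83 and 5.88 in Bm12.4 with supernatant and 5.88, 5.87, 6.77 and 6.72 in Bm12.4 media. The media difference was -1.70, with -1.25 within replicates 1 and 2 and -2.16 within replicates 3 and 4. Col20a1, another FACIT gene, read 5.04, 5.07, 5.15 and 5.07 in C57epi.1 media, against 5.22, 5.32, 6.37 and 6.58 in Bm12.4 media. Its difference of -0.79 (adjusted p = 0.0122, limma) lost the call without Bm12.4 media replicate 3 or 4 (adjusted p up to 0.0673, limma), the arrays where it was high, and was -0.21 within replicates 1 and 2 and -1.36 within replicates 3 and 4. Col12a1, a FACIT collagen that also spreads widely in Bm12.4, was higher in C57epi.1 media by 1.13 (SE 0.31), and by 0.62 within replicates 1 and 2 and 1.64 within replicates 3 and 4. The type VI chain Col6a3 was higher by 1.07, and by 0.68 and 1.47 within these sets.

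With supernatant, 18 collagens differed between the lines, 7 higher and 11 lower in C57epi.1, or 40.9% against 29.9% of all genes. Besides the 13, these were Col6a1 (-1.20), Col6a2 (-0.74), Col4a5 (-0.71), Col4a6 (-0.68) and Col28a1 (-0.27), all lower in C57epi.1. Among these, the call was lost for Col6a2 without C57epi.1 supernatant replicate 1 (adjusted p = 0.0751, limma), and for Col28a1 without C57epi.1 supernatant replicate 3 or 4 or Bm12.4 supernatant replicate 2 or 4 (up to 0.101). The Col20a1 call with supernatant was lost without C57epi.1 supernatant replicate 1, 2 or 3 or Bm12.4 supernatant replicate 2, 3 or 4 (up to 0.155). Within replicates 1 and 2 and within replicates 3 and 4, the supernatant differences were 0.64 and 2.17 for Col12a1, 0.57 and 1.03 for Col6a3, -0.92 and -0.56 for Col6a2, -0.50 and -0.79 for Col20a1, and -0.12 and -0.41 for Col28a1. Same-numbered media arrays of the lines deviated together. However, C57epi.1 media replicate 2 was closest to Bm12.4 media replicate 1, and replicate 3 to replicate 4, so the numbers did not pair single arrays. With the replicate number as a block, Col4a5 was also lower in C57epi.1 media (-0.53, adjusted p = 0.0262, limma), a call that rests on this grouping.

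**Figure D2:**
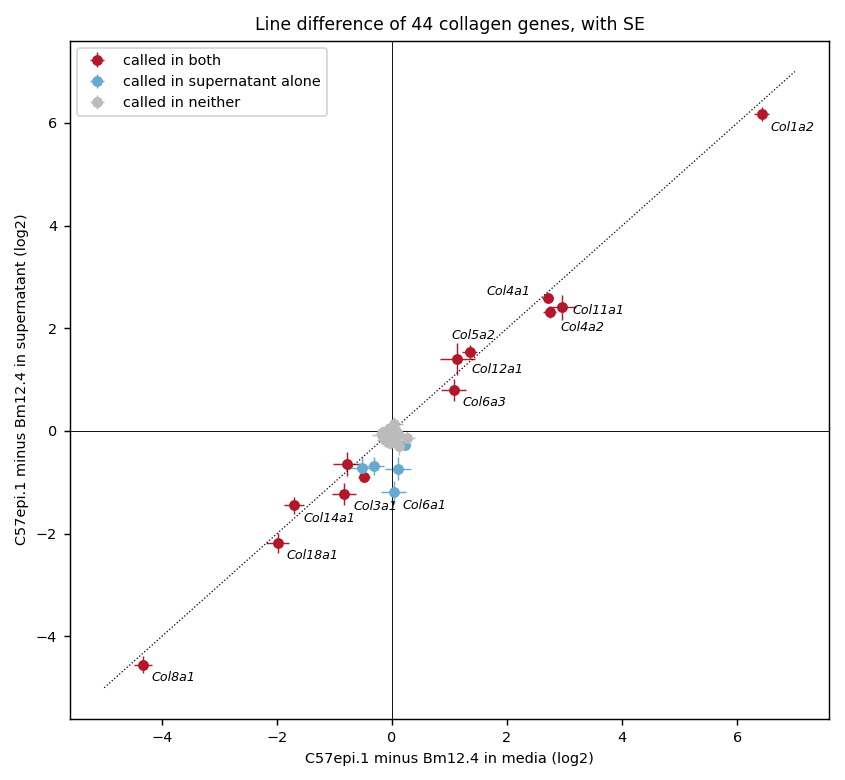
C57epi.1 minus Bm12.4 for each of 44 collagen genes, with media on the x axis and supernatant on the y axis (log2, bars are SE), coloured by where the difference was called. Col1a2 lies at 6.42 and 6.17, Col8a1 at -4.33 and -4.55, and Col6a1 near 0 in media and at -1.20 with supernatant; the dotted line marks equal differences.

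Of the other lists in media, 10 of 27 processing genes were higher and 4 lower in C57epi.1 than in Bm12.4, led by the crosslinking enzyme Lox (6.33), P3h2 (5.30) and the prolyl hydroxylase subunit P4ha3 (2.94). Of 15 basement membrane partners, 6 were higher and 2 lower, led by the nidogen Nid2 (-4.66) and the laminin chains Lama5 (3.29) and Lama4 (-2.61). Of 10 degradation genes, 1 was higher and 3 lower, led by the gelatinase Mmp2 (2.67), Mmp13 (-2.57) and Mmp8 (-1.90). Of 23 genes known to act on collagen transcription, 11 were higher and 4 lower, led by the transcription factor Creb3l1 (-2.21), the growth factor Ccn2 (2.08) and the tendon factor Scx (1.81). The list medians were 0.25, -0.07, -0.12 and 0.26, against -0.01 over all genes. Of all genes, 12% were higher and 12.5% lower. Among 12 stromal markers, 4 were higher and 2 lower, and among 6 mesothelial markers 3 were lower. The mean of 6 smooth muscle markers lay between 6.07 and 6.44 in C57epi.1 media and between 5.20 and 5.54 in Bm12.4 media. That of 13 epithelial markers lay between 5.38 and 5.53 and between 5.08 and 5.16. The macrophage, endothelial and proliferation means overlapped between the lines. The part of any of these markers in the collagen differences was not tested.

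**Figure D3:**
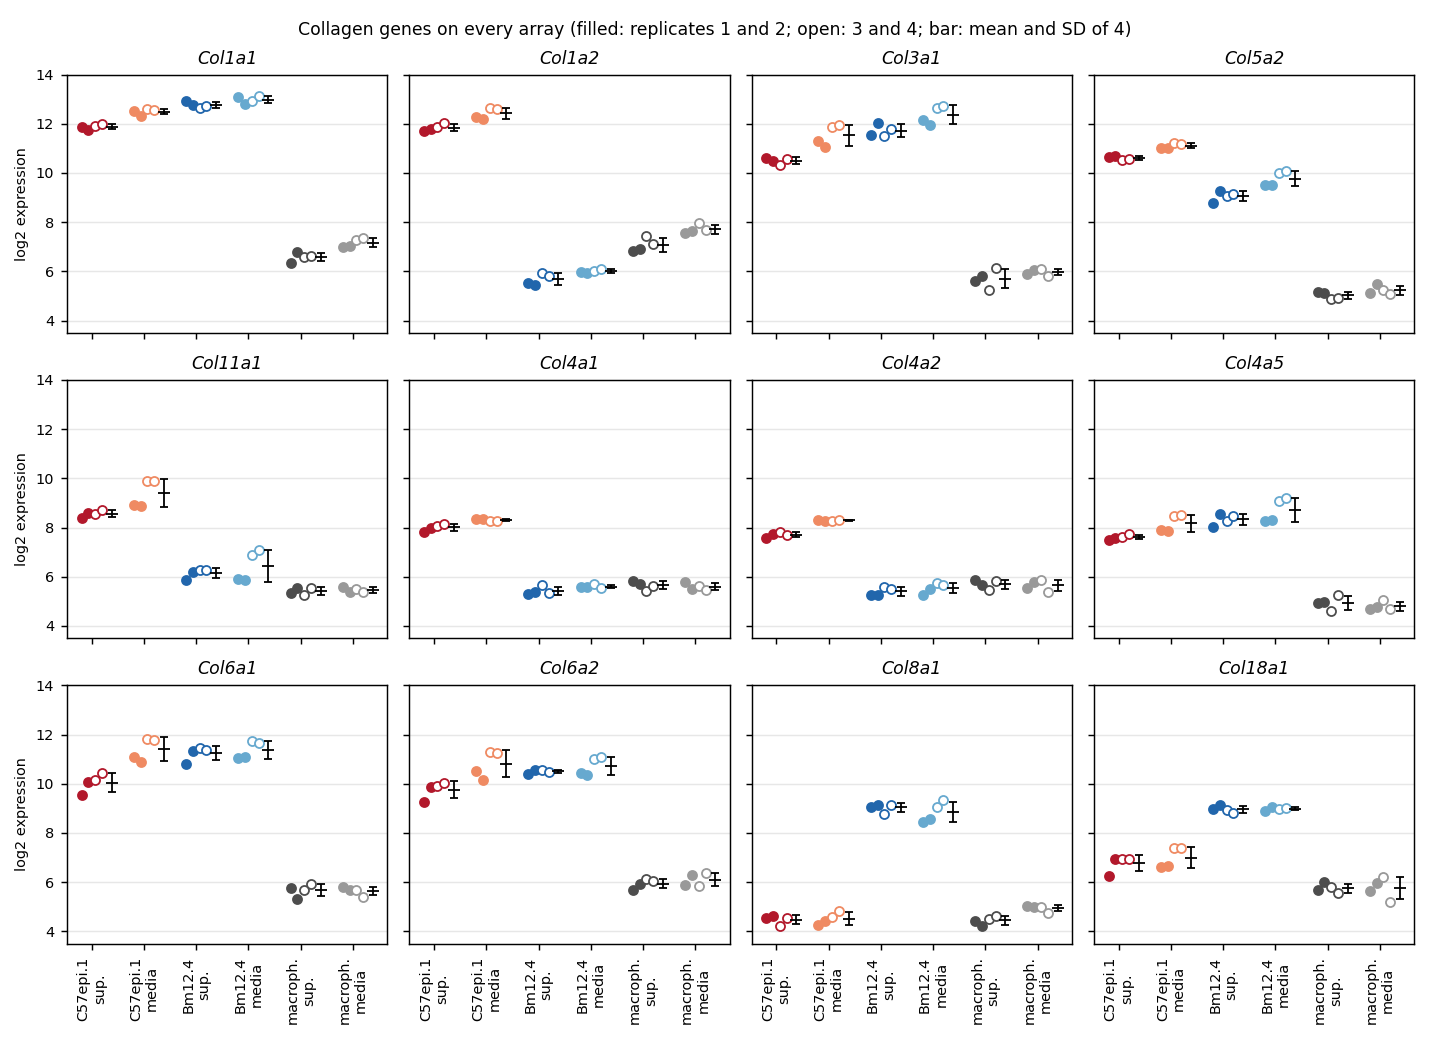
Log2 expression of 12 collagen genes on every array of the 6 groups (sup., supernatant; macroph., macrophages), with filled circles for replicates 1 and 2, open circles for replicates 3 and 4, and a bar for the mean and SD of 4 arrays. In both lines' media the open circles of Col3a1, Col11a1, Col6a1 and Col6a2 lie above the filled ones, while Col4a1, Col4a2 and Col1a2 separate the lines on every array.

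In C57epi.1, 13 collagens fell with supernatant, among them both type I chains, Col3a1, the type VI chains Col6a1 and Col6a2, and 4 type IV chains. None of the other 31 of the 44 passed the test, and 0 rose (limma, adjusted p under 0.05; 0 rose also at an unadjusted p under 0.05). The falls were 29.5% of the collagens, while 10.4% of all genes were lower, 8.85% higher and 19.2% called in either direction. The difference was below 0 for 42 of 44, with a median of -0.22 against -0.04 over all genes. The share of all genes below 0 was not counted, and 24 of the 44 had group means that spanned less than 0.5. The 42 are therefore no count of collagens that fell. The 13 were 6 of 11 fibrillar genes (Col1a1, Col1a2, Col2a1, Col3a1, Col5a2, Col11a1), 4 of 6 basement membrane genes (Col4a1, Col4a2, Col4a5, Col4a6), 2 of 6 beaded filament genes (Col6a1, Col6a2) and 1 of 9 FACIT genes (Col16a1). For each of them all supernatant arrays lay below all media arrays, and each was also called higher in C57epi.1 media than in macrophage media. Both statements use the C57epi.1 media arrays that gave the calls, so neither is separate support for the falls. For 15 of 44 collagens the arrays of the treatments did not overlap, or 34.1%, against 20.6% of all genes.

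Col6a1 fell by 1.36 on the log2 scale (SE 0.22, adjusted p = 0.000105, limma), or 2.56-fold, from the array values given above. Col6a2 fell by 1.06 (SE 0.23, adjusted p = 0.00159, limma) and Col3a1 by 1.04 (SE 0.21, adjusted p = 0.000709, limma), and these 3 were the only collagens past 2-fold, or 6.82% against 3.85% of all genes. The falls of Col4a6 (-0.86), Col11a1 (-0.83), Col16a1 (-0.76), Col1a1 (-0.61), Col1a2 (-0.58), Col4a2 (-0.58), Col4a5 (-0.57), Col5a2 (-0.52), Col2a1 (-0.37) and Col4a1 (-0.30) were smaller. Within replicates 1 and 2 and within replicates 3 and 4, the falls were -1.20 and -1.51 for Col6a1, -0.80 and -1.32 for Col6a2, -0.62 and -1.47 for Col3a1, and -0.40 and -1.25 for Col11a1. They were -0.34 and -0.80 for Col4a5, -0.66 and -1.04 for Col4a6, -0.37 and -0.66 for Col5a2, and -0.43 and -0.17 for Col4a1. Those of Col1a1 (-0.61 and -0.62) and Col16a1 (-0.81 and -0.70) were close to each other. Replicates 1 and 2 alone gave 9 lower calls, or 20.5% against 5.29% of all genes, and replicates 3 and 4 alone gave 13, or 29.5% against 15.5%.

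The calls of Col2a1, Col4a1, Col4a5 and Col11a1 were lost when single arrays were left out. For Col11a1 these were supernatant replicate 1 and media replicates 3 and 4 (adjusted p up to 0.0881, limma). For Col4a5 they were any supernatant array and media replicates 3 and 4 (up to 0.176), for Col4a1 supernatant replicates 1 and 2 and any media array (up to 0.122), and for Col2a1 any array but media replicate 1 (up to 0.096). Beside these falls, the stromal mean was 7.40 to 7.49 with supernatant and 7.63 to 8.32 in media, with 3 of 12 stromal markers lower (S100a4 -2.54, Pdgfra -2.18, Pdgfrb -0.96) and 0 higher. The proliferation mean was 9.88 to 10.21 with supernatant and 9.29 to 10.63 in media, with 0 of 9 genes called. The mesothelial mean was 8.67 to 9.04 with supernatant and 8.79 to 9.36 in media, with Lrrn4 (-1.69) and Upk3b (-0.52) lower and Wt1 (0.48) higher of 6 markers. The macrophage mean was 4.13 to 4.29 with supernatant and 4.25 to 4.50 in media, with Lyz2 (-0.86) and Spi1 (-0.36) lower of 10. The epithelial mean was 5.36 to 5.45 with supernatant and 5.38 to 5.53 in media, with Krt7 (-0.69) and Tjp3 (-0.29) lower and Krt18 (0.52) higher of 13. Of 6 smooth muscle markers Des was lower (-0.70), and 0 of 7 endothelial markers were called. The part of any of these in the collagen falls was not tested.

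**Figure D4:**
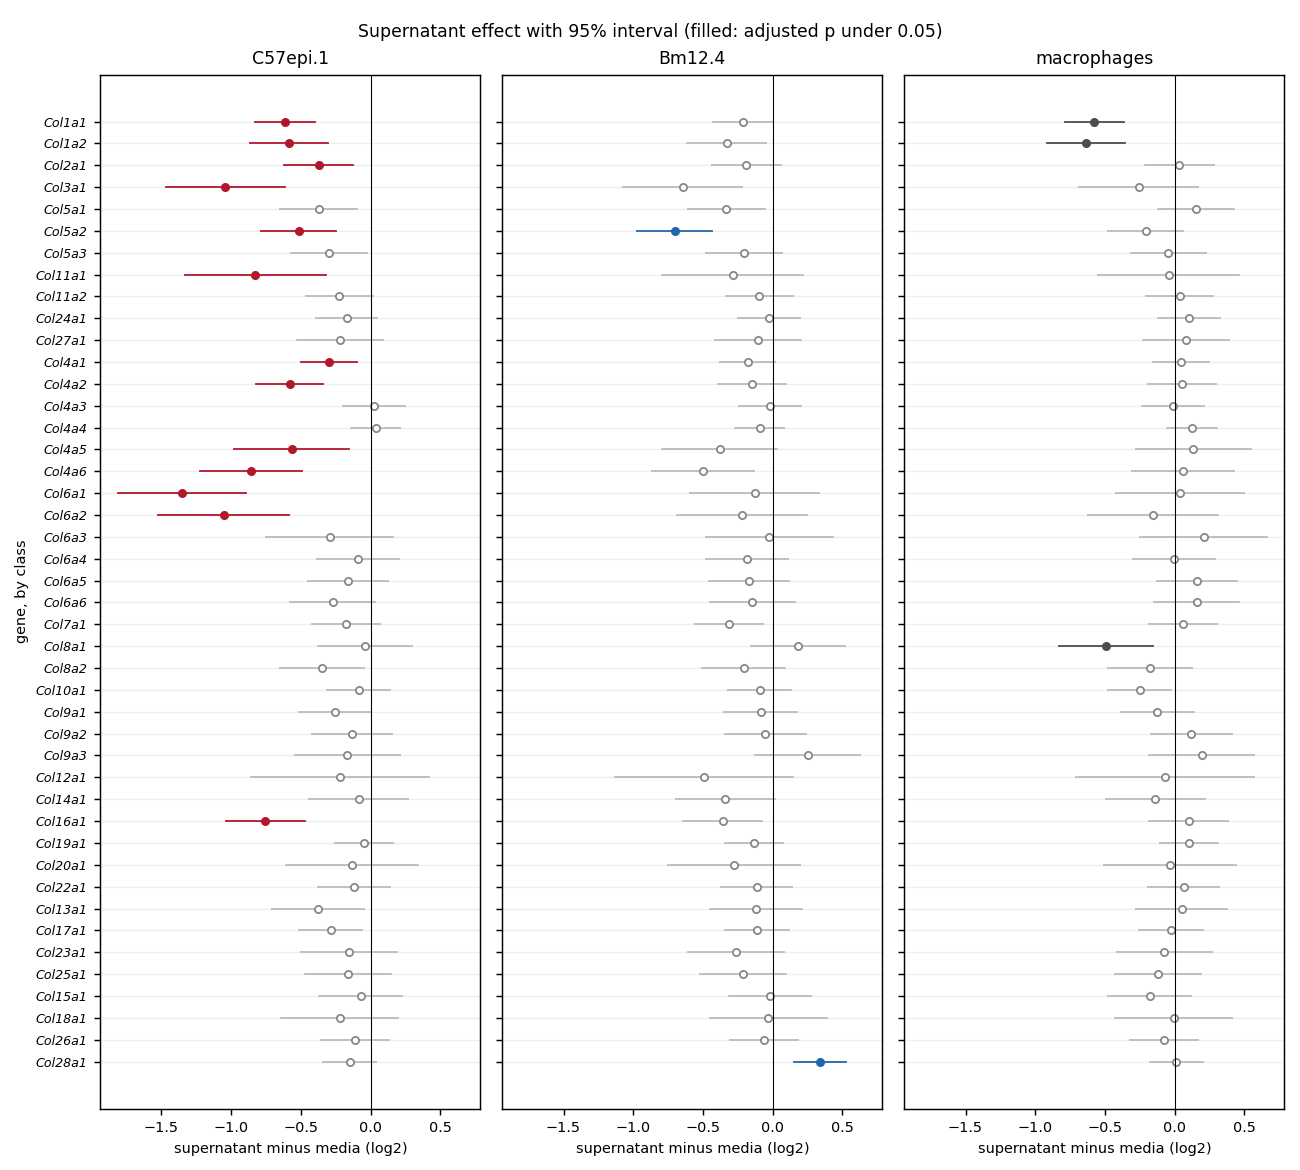
Supernatant minus media (log2, x axis) for 44 collagen genes by class, in C57epi.1, Bm12.4 and macrophages, with 95% intervals and filled points where the adjusted p was under 0.05. C57epi.1 has 13 filled points, all below 0, led by Col6a1 at -1.36; Bm12.4 has Col5a2 at -0.70 and Col28a1 at 0.34, and macrophages have Col1a1, Col1a2 and Col8a1.

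In Bm12.4, 1 collagen fell and 1 rose: Col5a2 fell by 0.70 (SE 0.13, adjusted p = 0.000758, limma) and Col28a1, which encodes a collagen with von Willebrand factor type A domains, rose by 0.34 (SE 0.09, adjusted p = 0.0208, limma). That is 4.55% of the collagens, against 7.25% of all genes. Col28a1 read 4.88, 5.20, 5.09 and 5.24 with supernatant, against 4.75, 4.67, 4.78 and 4.85 in media, so the groups did not overlap. The difference was below 0 for 41 of 44, all 13 genes that fell in C57epi.1 among them, with a median of -0.16 against -0.05 over all genes. The share of all genes below 0 was not counted here either. Same-numbered arrays of Bm12.4 deviated together, and with the replicate number as a block in the fit over all arrays 4 fell and 1 rose, or 5 in all, against 8.28% of all genes. The added ones were Col1a2 (-0.33, adjusted p = 0.0281, limma), Col3a1 (-0.65, 0.0482) and Col4a6 (-0.50, 0.0487). With the block and only the Bm12.4 arrays, Col5a2 alone was called, and with only those arrays and no block there were 0 calls. After centring each array on its median, 1 rose and 2 fell. The shares of all genes called with only the Bm12.4 arrays and after centring are not given here.

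The Bm12.4 values depended on which replicates were used. Replicates 1 and 2 alone gave 1 higher and 1 lower call, or 2.27% each way, against 5.49% of all genes higher and 3.37% lower. Replicates 3 and 4 alone gave 1 higher call (2.27% against 8.25% of all genes) and 11 lower calls (25% against 7.75%). Col5a2 differed by -0.48 and -0.93 in these sets. Col3a1 differed by -0.25 within replicates 1 and 2 and by -1.04 within replicates 3 and 4, Col4a5 by 0.02 and -0.78, Col11a1 by 0.14 and -0.72, and Col8a1 by 0.60 and -0.23. The Col28a1 call was lost without supernatant replicate 2 or 4 or media replicate 2 (adjusted p up to 0.0845, limma). The proliferation mean was 9.09 to 10.34 with supernatant and 7.67 to 10.52 in media, and the stromal mean 8.30 to 8.53 with supernatant and 7.87 to 8.52 in media, with S100a4 lower (-0.70). No other marker of the 7 lists of cell types and proliferation was called, and their part was not tested.

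**Figure D5:**
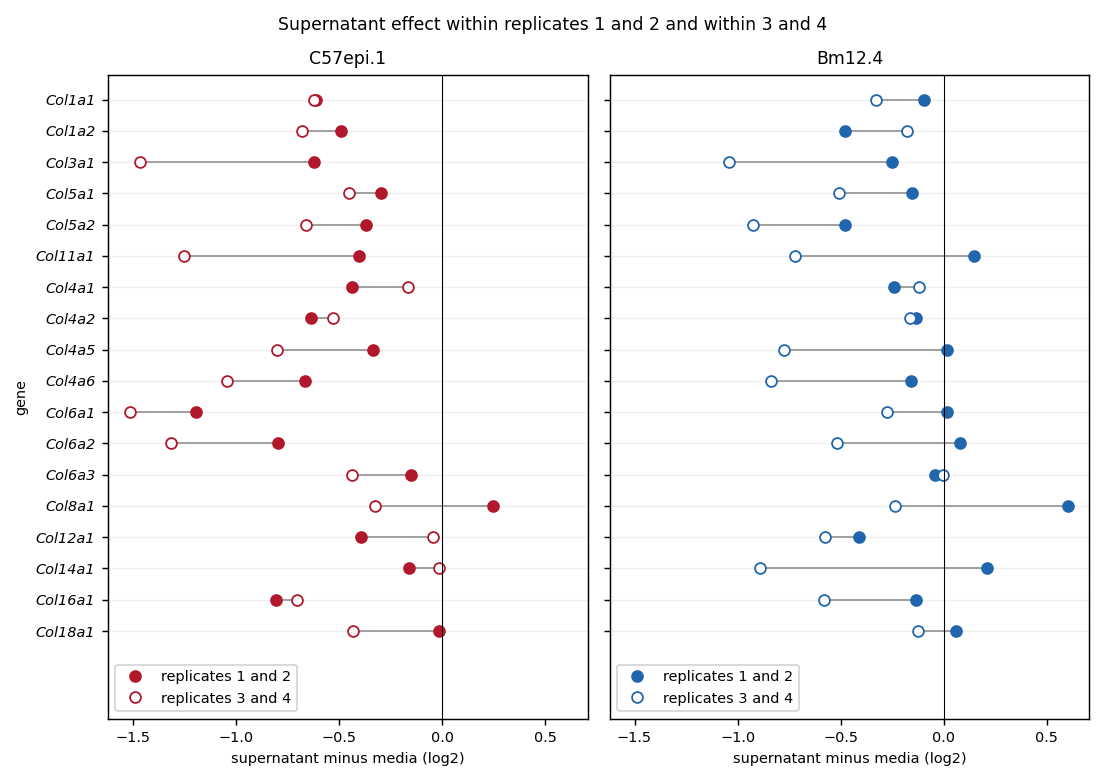
Supernatant minus media (log2, x axis) for the 18 collagen genes whose group means spanned at least 1, in C57epi.1 and Bm12.4, within replicates 1 and 2 (filled) and within replicates 3 and 4 (open). In C57epi.1 the points of Col6a1 lie at -1.20 and -1.51 and those of Col1a1 at -0.61 and -0.62; in Bm12.4 those of Col4a5 lie at 0.02 and -0.78 and those of Col8a1 at 0.60 and -0.23.

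In macrophages 3 collagens fell, which is 6.82% against 6.31% of all genes, and 0 rose (limma; 0 rose also at an unadjusted p under 0.05). Both type I chains fell, Col1a1 by 0.58 (SE 0.10, adjusted p = 0.000292, limma) and Col1a2 by 0.64 (SE 0.14, adjusted p = 0.00209, limma), with no overlap between treatments. Col8a1 fell by 0.49 (adjusted p = 0.0495, limma), from arrays that read between 4.22 and 5.02 (-0.69 within replicates 1 and 2 and -0.30 within replicates 3 and 4), and this call was lost without any of supernatant replicates 1, 2 and 3 or media replicates 1, 2 and 3 (adjusted p up to 0.167). Of the 44 differences, 22 were below 0 and 22 above (the share of all genes was not counted), and the median was 0.01 against -0.02 over all genes. The stromal mean in these arrays was 5.56 to 5.67 with supernatant and 5.80 to 5.97 in media, with S100a4 lower by 2.41. The mean of 9 proliferation genes was 6.30 to 7.22 with supernatant and 6.90 to 8.20 in media, and 3 of them were lower. The endothelial mean was 5.47 to 5.59 with supernatant and 5.50 to 5.57 in media, with Kdr (1.78) and Pecam1 (0.45) higher and Vwf (-1.97) lower of 7 markers. The macrophage markers Spi1 (0.43) and Fcer1g (0.34) were higher and Adgre1 (-0.41) lower of 10. Col1a1 differed by -0.45 within replicates 1 and 2 and by -0.70 within replicates 3 and 4. The part of other cells in the low type I levels was not tested.

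Whether the effect itself differed between kinds of cell was tested as a difference of differences. Between C57epi.1 and Bm12.4 it differed for Col6a1, by -1.23 (95% interval -1.88 to -0.57, adjusted p = 0.0277, limma), and for Col28a1, by -0.49 (adjusted p = 0.0315, limma), so 2 of 44 (4.55%) were lower, against 2.04% of all genes lower and 4.03% called in either direction. Col6a1 differed by -1.36 in C57epi.1 and -0.13 in Bm12.4. The other 12 genes that fell in C57epi.1 did not pass this test. Leaving out single arrays gave an adjusted p of 0.00778 to 0.0714 for Col6a1 and 0.00898 to 0.0817 for Col28a1. For Col6a1 the call was lost without supernatant replicate 1 or 2 or media replicate 3 or 4 of C57epi.1, and without supernatant replicate 2, 3 or 4 or media replicate 1 or 2 of Bm12.4. For Col28a1 it was lost without supernatant replicate 2, 3 or 4 or media replicate 3 or 4 of C57epi.1, and without supernatant replicate 2, 3 or 4 or media replicate 1 or 2 of Bm12.4.

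Between C57epi.1 and macrophages, 4 of 44 (9.09%) were lower in C57epi.1 and 0 higher, against 4.94% of all genes lower and 9.93% in either direction (limma; 0 higher also at an unadjusted p under 0.05). They were Col6a1 (-1.39, adjusted p = 0.00512), Col4a6 (-0.91, 0.0208), Col16a1 (-0.86, 0.00514) and Col4a2 (-0.63, 0.0153), all by limma. The Col4a6 call was lost without media replicate 3 of C57epi.1 or media replicate 1 of macrophages (adjusted p up to 0.0517, limma). Between Bm12.4 and macrophages 0 of 44 passed, against 5.64% of all genes (limma), and at an unadjusted p under 0.05 there were 3 higher and 5 lower. The share of all genes at the unadjusted threshold was not counted, so these unadjusted counts cannot be weighed against it. For Col1a1, the supernatant effect had a 95% interval of -0.83 to -0.40 in C57epi.1, -0.43 to 0.00 in Bm12.4 and -0.79 to -0.36 in macrophages.

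Of 27 collagen processing genes, 8 (29.6%) fell and 2 (7.41%) rose in C57epi.1 with supernatant, against 10.4% and 8.85% of all genes, and the shares of all genes are the same for the lists that follow. They were led by P4ha3 (-1.97), the prolyl hydroxylase complex member P3h4 (-1.29) and the lysyl hydroxylase Plod3 (0.98), with a median of -0.14 against -0.04 over all genes. Of 10 degradation genes, 1 rose and 2 fell: Mmp13 (1.91), Mmp2 (-1.23) and the inhibitor Timp2 (-0.52). Of 9 receptors, 1 rose and 2 fell, led by the endocytic receptor Mrc2 (-1.13). Of 15 basement membrane partners, 2 rose and 1 fell: the laminin chains Lamb2 (-1.20), Lama3 (0.57) and Lamb3 (0.45). Of 23 regulators, 5 rose and 5 fell, led by the interferon response factor Irf1 (3.55), Ciita (2.39) and the growth factor Tgfb3 (-1.53).

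In Bm12.4 with supernatant, 1 of 27 processing genes rose and 2 fell, led by Plod3 (0.51), Mia3, which carries procollagen out of the endoplasmic reticulum (-0.40), and the cyclophilin Ppib (-0.40). There 2 of 10 degradation genes rose, Mmp13 (1.73) and Mmp8 (1.12), and 2 of 23 regulators rose, Irf1 (2.41) and Ciita (2.22), while 2 fell; of all genes, 4.54% rose and 2.7% fell. In macrophages 5 of 10 degradation genes fell and 1 rose, led by the inhibitor Timp2 (-1.53), the protease Ctsk (-1.35) and the inhibitor Timp3 (-1.35). The collagenase Mmp13 averaged 13.07 with supernatant and 11.74 in media there. Of 27 processing genes in macrophages, 5 rose while 3 fell. Of all genes, 6.13% rose and 6.31% fell. The median of the processing list was -0.16 in Bm12.4 (-0.05 over all genes) and 0.03 in macrophages (-0.02 over all genes), and that of the degradation list was -0.54 in macrophages. The degradation list pools proteases with inhibitors, so its median and counts give no direction of degradation.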

How the data were processed

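Total RNA, 100 ng per array, was biotin-labelled and hybridised to Affymetrix arrays. The authors' deposited log2 values, 1 per probe set and array with 2 decimals, were made with GCOS, Partek 6.2 and RMA, per the submitters' processing notes, which give these names without order or role. The table held 28853 probe sets, of which 21789 had 1 symbol in the platform's annotation, 1621 several and 5443 none, leaving 19938 genes. All 44 collagen symbols matched RefSeq. Array medians were 5.00 to 5.19, and arrays of a group correlated at r = 0.9744 to 0.9977; the number of arrays, 4 per group, limits precision. Col6a4, Col6a5 and Col6a6 are similar neighbours and may share signal.

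From these values, 1 model in limma 3.58.1 (R 4.3.3; lmFit, eBayes; a mean per group, 18 residual and 3.62 prior degrees of freedom) gave 12 two-sided comparisons, adjusted by Benjamini-Hochberg over all 19938 genes and called under 0.05. The fit was tested on simulated data. Array values were given for collagens called at a difference of at least 1 with supernatant, and for Col1a1, Col1a2, Col4a1 and Col4a2. They were also given for the 5 largest called differences each way between kinds of cell in media. Of other lists, at most the 3 called genes with the largest differences were named, with some exceptions. These were the markers set against the label of epithelial cells, and Timp1, Timp2, Timp3 and Mmp13 of the degradation list. Of 199 list genes, 8 had no probe set of 1 symbol (among them Fkbp10, Adamts2 and Loxl2). Members, lists and tests were chosen with earlier results of these data known. Same-numbered arrays were taken as paired where every pair's deviations correlated above 0.1: Bm12.4 supernatant and media (0.226 to 0.683) and C57epi.1 and Bm12.4 media (0.512 to 0.625). Between the lines, C57epi.1 media replicates 2 and 3 correlated best with Bm12.4 media replicates 1 and 4, so the numbers there did not pair single arrays. Alternatives covered the filter on dim genes, the variance model, array weights, centring, the replicate block, subsets of arrays and each array left out.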

Additional observations from a re-analysis of the deposited data

Results flagged for a closer look

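Within groups of 4 arrays, 6 values of the 18 collagens with wide spans stood apart from the other 3 by a gap above Dixon's 95% limit. In 108 groups tested, chance at 1 in 20 gives 5.4 such values. With supernatant, Col18a1 (6.27) and Col8a1 (4.20) each had 1 low C57epi.1 array, and in Bm12.4 Col6a1 had 1 low array (10.81) and Col4a1 1 high array (5.68). In macrophage media, Col16a1 (5.81) and Col8a1 (4.76) each had 1 low array, both from replicate 4.

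The supernatant effect differed between kinds of cell for 5 collagens, by a test of the difference itself (limma, adjusted p under 0.05). Against Bm12.4, the effect in C57epi.1 was lower by -1.23 for Col6a1 and by -0.49 for Col28a1. Against macrophages, it was lower in C57epi.1 by -1.39 for Col6a1, -0.91 for Col4a6, -0.86 for Col16a1 and -0.63 for Col4a2.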

How the results depend on the processing

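Of 131 results for collagens called in a comparison, 97 kept the call under every alternative run; over 2385 alternatives, 2217 kept direction and call, 167 lost the call and 1 reversed. In the supernatant effect in Bm12.4 (2 called), only the arrays of that line gave 0 calls, the replicate block gave 5, replicates 3 and 4 alone gave 12, and the block with only those arrays, chosen after seeing the data, gave 1; leaving out single arrays gave 1 to 3. For the response difference of C57epi.1 against Bm12.4 (2 called), only the arrays compared gave 0, the filter on dim genes, which kept 28 of 44 collagens, gave 1, array weights gave 4, replicates 1 and 2 alone gave 0, replicates 3 and 4 alone gave 4, and leaving out single arrays gave 0 to 3. For C57epi.1 against macrophages (4 called), array weights gave 10 and replicates 3 and 4 alone gave 7. For Bm12.4 against macrophages (0 called), array weights gave 1, replicates 1 and 2 alone gave 1, replicates 3 and 4 alone gave 3, and leaving out single arrays gave 0 to 1. Shares of all genes were given above for the block and for replicates 3 and 4 alone in the Bm12.4 effect. For the other settings they are not given here, so those counts cannot be weighed against all genes. The causes of these changes were not tested. The block ended no other call in the comparisons taken as paired. Elsewhere, in C57epi.1 the same-number correlations ran from -0.143 to 0.396 and the block left 13 calls.

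Some directions turned, none of them in a result called in the comparison of treatments. The Col8a1 effect in C57epi.1 was 0.01 on median-centred arrays and 0.245 in replicates 1 and 2, and -0.124 to 0.066 with single arrays left out. In Bm12.4, replicates 1 and 2 alone gave 0.145 for Col11a1, 0.015 for Col4a5, 0.015 for Col6a1 and 0.08 for Col6a2; Col6a1 was 0.014 with array weights and -0.239 to 0.016 with single arrays left out, and Col8a1 was -0.235 in replicates 3 and 4. Col20a1, called higher in Bm12.4 than in macrophage media, was -0.14 in replicates 1 and 2. The cause was not tested. Without a measure of signal over background, small differences among dim collagens cannot be weighed.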
